A study of Homo sapiens with 4 samples.

Results

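The 54 genes described here form a widely used list for scoring G2 and mitosis in single cells, and cover the kinases, ubiquitin ligases, kinetochore, spindle, cytokinesis and chromatin proteins of cell division. They were found by gene symbol, and all 54 were present among the 36602 gene rows of the deposited matrix. The data came from OVCAR5, a human ovarian carcinoma line, exposed to supernatant taken from a coculture of tumour cells and T cells. The supernatant was given undiluted or diluted 5, 25, 125 or 625 times, or was left out (unstimulated cells), for 2, 6, 12 or 24 h, which makes 24 conditions of 1 culture each. All conditions were labelled with pairs of 10 hashtag antibodies and pooled into 1 droplet run for 3′ gene expression. No label used here ties a hashtag pair to a dilution or a time, so the 24 pairs are named by their tags (HTO3/HTO9), no dose or time is assigned to them, and no comparison between treatments was tested.

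Dividing cells copy their DNA in S phase, pass through G2, and enter mitosis when cyclin B with the kinase CDK1 becomes active. Kinetochores then attach chromosomes to the spindle, a checkpoint holds the cell until every chromosome is attached, and the ubiquitin ligase APC/C with its activator CDC20 starts separation. Transcripts of most of these genes are low after division and build up towards mitosis, when the MuvB complex acts with B-MYB and FOXM1. MuvB binds a promoter element known as the cell cycle genes homology region, and the factor NF-Y binds the CCAAT box.

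Promoter sequence was looked up for all members in RefSeq's GRCh38.p14 entries, and 45 of the 54 had 1 or more starts there. The homology region was searched as TTTGAA or TTTAAA on both strands within 250 bases before the start. Of the 45 members, 33 held a match at any of their starts, or 73.3%, against 25.5% of all 27305 symbols with an entry. TTTGAA was found for 26 members, against 16.1% of all symbols, and TTTAAA for 11, against 13.5%. The CCAAT box, searched as CCAAT on both strands, was found for 32 members, or 71.1%, against 37.0% of all symbols. Both elements stood together in 26 members, or 57.8%, against 10.7% of all symbols. Members with 1 start alone gave 25 of 36 for the homology region, against 22.7% of the symbols with 1 start. With the 50 bases after the start searched too, 39 of the 45 members held the homology region, against 27.9% of all symbols. A match is a description of these letters and not a measured binding site.

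The 8 stretches below show the 130 bases before the RefSeq start, read 5′ to 3′ on the strand of the gene, with matches to the searched elements, on either strand, in capitals. They were picked to set promoters with both elements beside promoters with one or neither, for genes whose values are given further on. A GENCODE gene start can lie inside such a stretch, since the annotations place starts differently.
CKS2, chr9:89311065-89311194, plus strand: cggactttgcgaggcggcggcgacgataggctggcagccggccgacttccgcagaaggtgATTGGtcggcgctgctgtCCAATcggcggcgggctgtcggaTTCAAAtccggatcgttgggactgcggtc
CDC20, chr1:43358851-43358980, plus strand: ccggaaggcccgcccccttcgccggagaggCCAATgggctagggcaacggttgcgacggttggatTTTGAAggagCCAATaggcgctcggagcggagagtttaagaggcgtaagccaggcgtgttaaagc
MKI67, chr10:128126424-128126553, minus strand: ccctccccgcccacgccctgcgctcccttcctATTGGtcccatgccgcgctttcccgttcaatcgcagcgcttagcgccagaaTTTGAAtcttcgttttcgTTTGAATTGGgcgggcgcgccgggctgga
KIF11, chr10:92593000-92593129, plus strand: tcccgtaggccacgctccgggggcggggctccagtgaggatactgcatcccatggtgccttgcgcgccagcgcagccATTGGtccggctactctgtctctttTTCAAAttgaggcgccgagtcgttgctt
CENPF, chr1:214603065-214603194, plus strand: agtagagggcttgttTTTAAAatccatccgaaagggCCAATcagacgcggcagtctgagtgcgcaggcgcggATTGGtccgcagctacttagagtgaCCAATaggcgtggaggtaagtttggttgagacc
CKS1B, chr1:154974551-154974680, plus strand: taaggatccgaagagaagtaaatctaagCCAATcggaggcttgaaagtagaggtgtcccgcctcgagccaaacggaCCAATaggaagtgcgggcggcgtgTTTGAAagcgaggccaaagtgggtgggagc
NEK2, chr1:211675622-211675751, minus strand: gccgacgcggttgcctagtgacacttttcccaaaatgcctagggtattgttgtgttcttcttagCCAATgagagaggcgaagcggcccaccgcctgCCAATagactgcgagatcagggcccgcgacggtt
KIF2C, chr1:44739707-44739836, plus strand: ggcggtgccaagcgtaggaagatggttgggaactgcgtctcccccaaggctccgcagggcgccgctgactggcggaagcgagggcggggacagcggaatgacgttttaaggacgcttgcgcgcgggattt
In CKS2 the homology region, on the strand opposite the gene, began 29 bases before the start, with CCAAT matches at 52 and 70 bases. In KIF11 it lay at 28 bases with 1 CCAAT match at 53 bases, and in CDC20 it lay at 65 bases between CCAAT matches at 100 and 55 bases. MKI67 held 2 copies of TTTGAA, at 47 and 29 bases. CENPF held TTTAAA at 115 bases and CCAAT matches at 94, 58 and 33 bases. CKS1B held TTTGAA at 30 bases and CCAAT at 102 and 54 bases within the stretch shown, NEK2 held CCAAT alone, at 66 and 34 bases, and KIF2C held neither element.

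Of 10660 barcodes, 6408 were kept, with 1000 or more genes and no more than 20% of UMIs (counts of distinct RNA molecules) from mitochondria, and 5298 of these carried a clear pair of tags. The 24 pairs held 137 to 272 cells and 1863154 to 3904112 UMIs each, so that 3 counts in a pair equal 0.768 to 1.61 counts per 1000000 UMIs (CPM). Epithelial markers were present, with 8 of 9 at 50 or more UMIs and a summed 1894 to 3739 CPM over the pairs. Of the 9, MUC16 had 4 UMIs, and CDH1 and PAX8 were low, at 2.3 and 3.0 CPM. T cell markers were nearly absent, with a summed 0 to 6.98 CPM. Of these 12, 5 had 0 UMIs (CD3E, CD3G, CD2, CD8B and PTPRC) and 1 had 50 or more, TRBC2 with 201 UMIs or 2.75 CPM. HTO3/HTO9 was the extreme pair: its cells had the lowest median depth, 9389 UMIs, and the highest median mitochondrial share, 13.8%. It also had the highest summed level of 24 interferon gamma response genes, 21888 CPM. HTO5/HTO8 came next on each of these, with 10714 UMIs, 12.8% and 17622 CPM. Results are given with and without HTO3/HTO9.

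Nearly all members were lowest in HTO3/HTO9, and the spindle and kinetochore genes were more often highest in HTO7/HTO10 than the chromatin genes. Of the 54 members, 52 had their lowest level in HTO3/HTO9, against 28.2% of the 5767 genes whose mean over the pairs reached 20 CPM. The exceptions were the chromatin insulator gene CTCF and RANGAP1, both lowest in HTO5/HTO8. HTO7/HTO10 held the highest level of 19 members, against 10.5% of the 5767 genes. Those 19 included 14 of 31 spindle and kinetochore members and 0 of 12 members of chromatin and nuclear structure. Every member passed the filter on low values. Between the highest and the lowest pair, 49 of the 54 ranged 2-fold or more on the log2(CPM + 10) scale, against 26.1% of the 5767 genes. Without HTO3/HTO9 the count was 35 of 54, against 20.2% of 5765 genes. The members' median log2 range was 1.65 and that of all genes 0.74. In HTO7/HTO10 the median mitochondrial share was the lowest of the 24, 8.67%, and the summed interferon level was 533 CPM. The part of depth, mitochondrial share and interferon response in these levels was not tested. In RNA summed over a pair, fewer cells in G2 or mitosis and less of these RNAs per cell cannot be told apart.

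**Figure D1:**
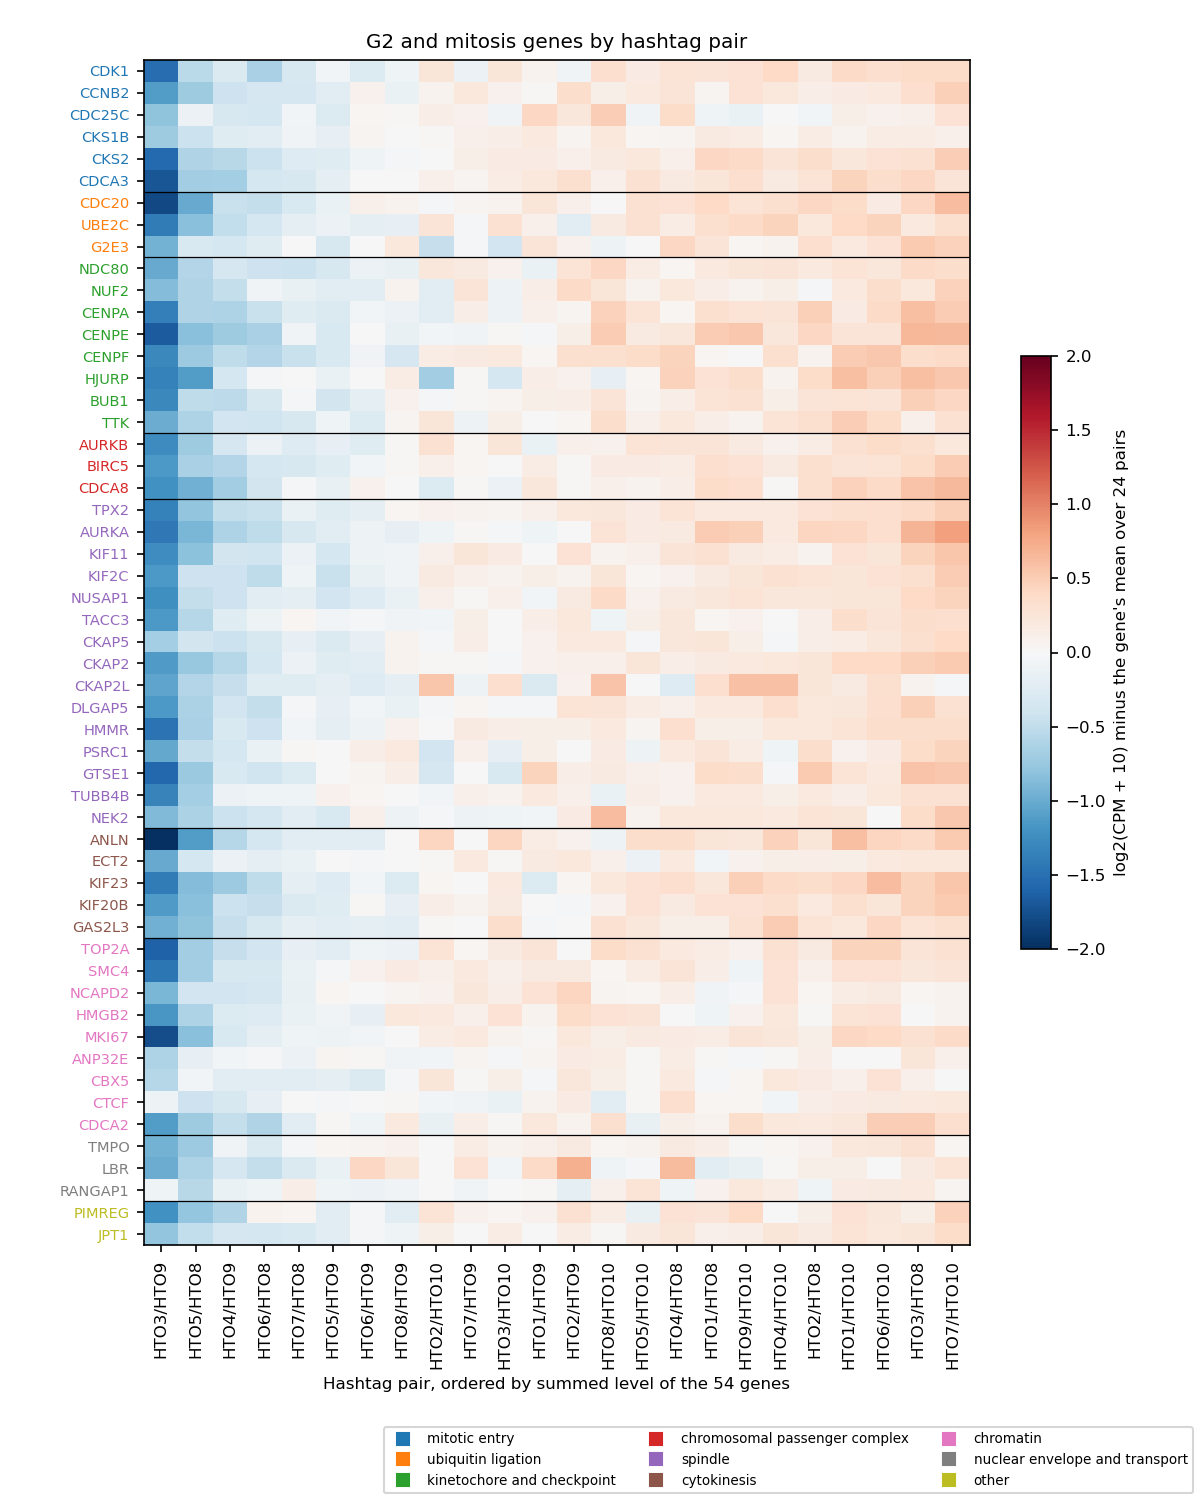
Level of each of the 54 genes (rows, grouped by role) in the 24 hashtag pairs (columns, ordered by the summed level of the genes), as log2(CPM + 10) minus the mean of the gene over the pairs. HTO3/HTO9 is the lowest column for 52 genes. LBR is highest in HTO2/HTO9, CKAP2L in HTO4/HTO10 and CTCF in HTO4/HTO8.

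Among the mitotic entry genes, CDCA3 and CKS2 had the widest ranges on the log2(CPM + 10) scale over all pairs, and CKS1B the narrowest. CKS2, a small subunit that docks on CDK1, was 113 CPM in HTO3/HTO9, 386 CPM at the median pair and 497 CPM in HTO7/HTO10. Its highest level was 4.40 times its lowest (95% counting interval 3.87 to 5.02), and 2.19 times without HTO3/HTO9. CKS1B, the close relative that also serves the SCF ubiquitin ligase, went from 194 to 374 CPM with a median of 336, a ratio of 1.94 (1.74 to 2.15). It was thus outside the 2-fold range, although the promoters of both genes hold both elements shown above. Both CKS genes have near-identical copies in the genome, and their counts are uncertain where reads could be split. CDCA3, a trigger of mitotic entry, had 12.7 CPM in HTO3/HTO9, a median of 73.4 and 91.3 CPM in HTO1/HTO10, a ratio of 7.17 (4.97 to 10.7). CDK1 itself ranged from 20.3 to 104 CPM with a median of 87.7, a ratio of 5.14 that is above that of CKS2, and CCNB2, a cyclin B, from 37.0 to 132 CPM with a median of 99.3. CDC25C, the phosphatase that activates CDK1, ranged from 10.4 to 40.0 CPM, with a median of 25.9. Of the 6 genes, 5 ranged 2-fold or more (26.1% of all genes), and 4 did so without HTO3/HTO9 (20.2%).

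The 3 ubiquitin genes were all lowest in HTO3/HTO9. CDC20, which activates the APC/C at the onset of anaphase, was 56.1 CPM in HTO3/HTO9, 237 CPM at the median and 344 CPM in HTO7/HTO10. The ratio was 6.12 (5.13 to 7.35), and 3.31 without HTO3/HTO9. UBE2C, the ubiquitin-conjugating enzyme of the APC/C, ranged from 104 to 396 CPM around a median of 323, with HTO6/HTO10 highest. G2E3, a ubiquitin ligase of G2, had 16.7 to 63.9 CPM and a median of 42.2, with HTO3/HTO8 highest.

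All 8 kinetochore and checkpoint genes ranged 2-fold or more (26.1% of all genes), and 6 did so without HTO3/HTO9 (20.2%). CENPE, the kinesin that carries chromosomes to the metaphase plate, lies at chr4:103105806-103198409 on the minus strand (GRCh38). It had 14.3 CPM in HTO3/HTO9, a median of 70.2 and 112 CPM in HTO3/HTO8, a ratio of 7.79 (5.51 to 11.3). CENPF, a large coat protein of the kinetochore, had 66.1 CPM at the lowest, 190 at the median and 260 CPM in HTO6/HTO10. For CENPA, the histone H3 variant of centromeres, the corresponding levels were 21.5, 75.4 and 113 CPM, the last in HTO3/HTO8. HJURP loads CENPA onto centromeres, and had 24.7 CPM in HTO3/HTO9, 81.9 at the median and 124 CPM in HTO3/HTO8. Without HTO3/HTO9 its ratio, 4.06, was still close to the 5.03 seen with it, because HTO5/HTO8 was also low at 30.6 CPM. BUB1, a checkpoint kinase, ranged from 31.5 to 132 CPM (median 99.0). The checkpoint kinase TTK ranged from 9.55 to 44.8 CPM (median 31.2). NDC80 and NUF2, partners in the complex that grips microtubules, ranged from 27.1 to 88.8 and from 19.9 to 65.3 CPM.

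The chromosomal passenger complex corrects wrong attachments through the kinase AURKB. Its subunit BIRC5 (survivin) had 133 CPM in HTO3/HTO9, a median of 335 and 443 CPM in HTO7/HTO10. CDCA8 (borealin), another subunit, went from 25.5 to 120 CPM around a median of 75.0, a ratio of 4.69 (3.58 to 6.22). AURKB ranged from 24.3 to 96.3 CPM with a median of 77.7, and was highest in HTO6/HTO10. All 3 genes ranged 2-fold or more with HTO3/HTO9 (26.1% of all genes) and without it (20.2%).

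The spindle genes were the largest group, and 10 of the 15 were highest in HTO7/HTO10 (10.5% of all genes). AURKA, the kinase that matures centrosomes, lies at chr20:56369389-56392337 on the minus strand. It had 100.3 CPM in HTO3/HTO9, a median of 291 and 514 CPM in HTO7/HTO10. Highest over lowest was 5.12 (4.48 to 5.88). The runners-up for AURKA were HTO3/HTO8 with 464 CPM and HTO1/HTO8 with 415 CPM. TPX2, which binds and activates AURKA on the spindle, had 129 CPM at the lowest, 379 at the median and 482 CPM at the highest, in the same lowest and highest pairs. GTSE1, a microtubule-tip protein, ranged from 19.9 to 122 CPM around a median of 84.6, with HTO3/HTO8 highest and a ratio of 6.15 (4.56 to 8.45). TUBB4B, a beta tubulin with close paralogs, had 259 CPM in HTO3/HTO9, 717 CPM at the median and 831 CPM in HTO7/HTO10. HMMR, which helps to organise spindle poles, went from 55.7 to 225 CPM and KIF11, the kinesin that pushes poles apart, from 14.3 to 74.3 CPM. CKAP5, a microtubule polymerase, lay just inside the 2-fold limit, from 63.3 to 145 CPM with a log2 range of 1.08. CKAP2L, a spindle protein also known as radmis, was highest in HTO4/HTO10 at 67.1 CPM, with a median of 40.8 CPM and 40.3 CPM in HTO7/HTO10.

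Among the cytokinesis genes, ANLN had the widest log2 range of all 54 members, 2.73. ANLN encodes anillin, the scaffold of the contractile ring, and lies at chr7:36389806-36453791 on the plus strand. The median pair had 208 CPM, the next lowest after HTO3/HTO9 had 78.1 CPM, and without HTO3/HTO9 the ratio was 3.56. KIF23, a kinesin of the central spindle, had 37.0 CPM in HTO3/HTO9, 125 at the median and 180 CPM in HTO6/HTO10. ECT2, which activates RhoA at the division plane, varied less, from 86.4 to 215 CPM around a median of 193. Its ratio was 2.49 (2.13 to 2.91) and 1.51 without HTO3/HTO9. GAS2L3, a linker of actin and microtubules, ranged from 5.97 to 34.1 CPM.

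**Figure D2:**
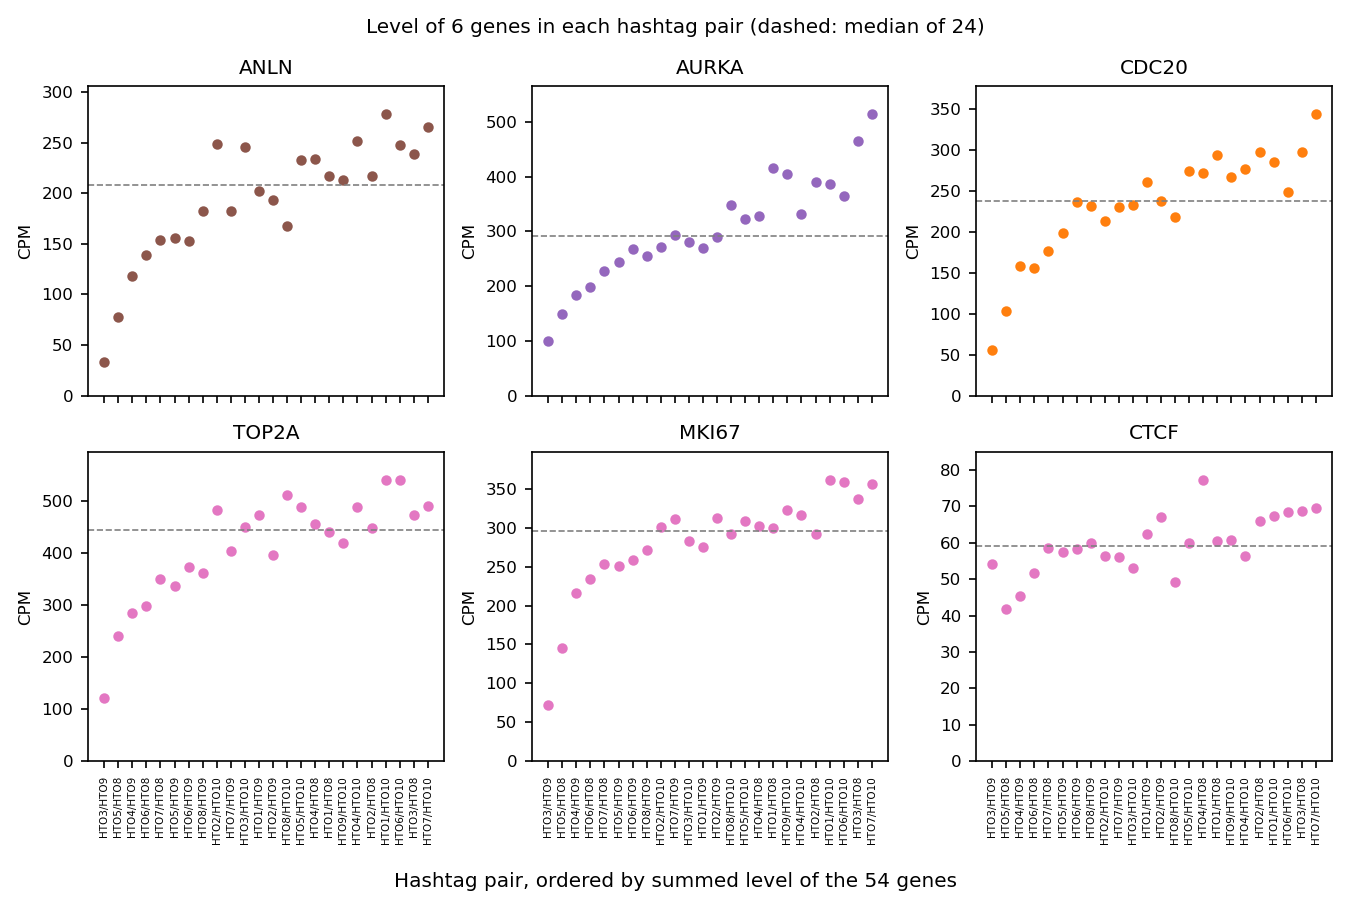
Level in CPM of 6 genes in each of the 24 hashtag pairs, in the same order as in the heat map, with the median of the pairs dashed. ANLN, AURKA, CDC20, TOP2A and MKI67 are lowest in HTO3/HTO9, AURKA reaches 514 CPM in HTO7/HTO10, and CTCF stays between 41.8 and 77.3 CPM.

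The chromatin genes split into members that varied like the rest and members that varied little. TOP2A, the topoisomerase that untangles sister chromatids, had a median of 443 CPM, and its highest level (HTO1/HTO10) was 4.43 times its lowest (3.93 to 5.02). MKI67, the proliferation marker that coats mitotic chromosomes, had 72.1 CPM in HTO3/HTO9, 296 at the median and 361 CPM in HTO1/HTO10, a ratio of 5.02 (4.29 to 5.90). SMC4 and NCAPD2, subunits of the condensin that compacts chromosomes, ranged from 74.4 to 273 and from 26.7 to 82.7 CPM. In contrast, CTCF had 41.8 to 77.3 CPM around a median of 59.2, a ratio of 1.85 (1.45 to 2.36), with HTO4/HTO8 highest. ANP32E, a histone chaperone, and CBX5, the heterochromatin protein HP1 alpha, had ratios of 1.94 (1.61 to 2.36) and 1.96 (1.60 to 2.42). These 3 and RANGAP1 and CKS1B were the 5 members under the 2-fold limit, and CKS1B, with a log2 range of 0.92, was the nearest to it.

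Of the nuclear envelope genes, LBR was highest in HTO2/HTO9, and RANGAP1 was lowest in HTO5/HTO8. LBR, the lamin B receptor of the inner nuclear membrane, had 49.0 CPM in HTO3/HTO9, a median of 107, and its highest levels in HTO2/HTO9 (182 CPM) and HTO4/HTO8 (171 CPM). HTO7/HTO10, the highest pair for 19 other members, had 131 CPM of LBR. The other pairs above that level were HTO1/HTO9, HTO6/HTO9 and HTO7/HTO9, at 142, 145 and 133 CPM. TMPO, a lamina-associated protein, ranged from 80.0 to 204 CPM around a median of 171. RANGAP1, which activates the GTPase Ran in nuclear transport and at kinetochores, stayed between 61.6 and 117 CPM. The remaining members were JPT1, a small cytoplasmic and nuclear protein, from 465 to 1051 CPM (median 880), and PIMREG, a mitotic regulator, from 6.77 to 43.8 CPM (median 31.2).

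As a group, the 31 spindle and kinetochore members ranged more widely than the 12 members of chromatin and nuclear structure. This did not hold among members that averaged 100 CPM or more. All 31 of the former and 8 of the latter ranged 2-fold or more (26.1% of all genes), and 23 and 5 did so without HTO3/HTO9 (20.2%). The median log2 ranges were 1.66 and 1.43, a difference of 0.23. Among members that averaged 100 CPM or more the difference was -0.03, so the sign turned. Relative to each other within a pair, the summed spindle and kinetochore UMIs were 2.03 times the summed chromatin and nuclear UMIs in HTO3/HTO9 (1.92 to 2.15) and 2.83 times in HTO7/HTO10 (2.75 to 2.92). The ratio was 2.65 in HTO2/HTO8, 2.68 in HTO1/HTO8, 2.71 in HTO3/HTO8 and 2.72 in HTO9/HTO10, and at most 2.42 in all pairs not named here, with none between 2.42 and 2.65. In the share of G2/M-range cells described next, HTO7/HTO10 (51.0%) and HTO3/HTO8 (45.8%) were the highest of the 24, and HTO2/HTO8, HTO9/HTO10 and HTO1/HTO8 had 39.0%, 37.7% and 37.5%. HTO1/HTO10 and HTO6/HTO10, with ratios of 2.41 and 2.42, had 40.3% and 39.1%, so shares and ratios did not rank all pairs alike. AURKA UMIs per TOP2A UMI were highest in 4 of these pairs, at 0.95 in HTO1/HTO8, 0.97 in HTO9/HTO10, 0.98 in HTO3/HTO8 and 1.05 in HTO7/HTO10 (0.98 to 1.13). HTO2/HTO8 followed with 0.87 and HTO3/HTO9 with 0.82. HTO1/HTO10, whose TOP2A was the highest of all, had 0.71 (0.66 to 0.77). The intervals cover counting error only, and each pair is 1 culture.

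Cells were then scored one by one, after each was thinned to 3000 UMIs, which left out 94 shallow cells of the 6408. The members gave a median of 22 of 3000 UMIs per cell, with 5 and 46 at the 5th and 95th percentiles. A cell with 30 or more is called a G2/M-range cell, which is a range of a continuous score and not a separate type, and 1623 cells (25.7%) lay within 5 UMIs of the limit. Of 6314 cells, 1854 (29.4%) were in the range. They had a median of 15500 UMIs before thinning and 9.82% mitochondrial UMIs, against 13129 UMIs and 10.8% in the other cells.

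The share of G2/M-range cells was 6.91% in HTO3/HTO9 (exact binomial interval 4.08 to 10.8%), 12.8% in HTO4/HTO9, 12.9% in HTO5/HTO8 and 18.4% in HTO6/HTO8. It was 45.8% in HTO3/HTO8 and 51.0% in HTO7/HTO10 (43.9 to 58.1%), with a median of 31.7% over the 24 pairs. The highest share exceeded the lowest by 44.1 percentage points (36.2 to 51.4), and by 38.2 points (29.8 to 46.0) without HTO3/HTO9. The size of this gap depends on the limit: it was 66.6 points with 20 UMIs and 14.4 points with 45 UMIs, each as the gap between the highest and the lowest pair. Without thinning, with the limit at 1% of a cell's UMIs, HTO3/HTO9 had 5.69%, HTO3/HTO8 had 50.5% and HTO7/HTO10 had 50.7%. Free RNA in the droplets can add to such scores, and its part was not tested.

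**Figure D3:**
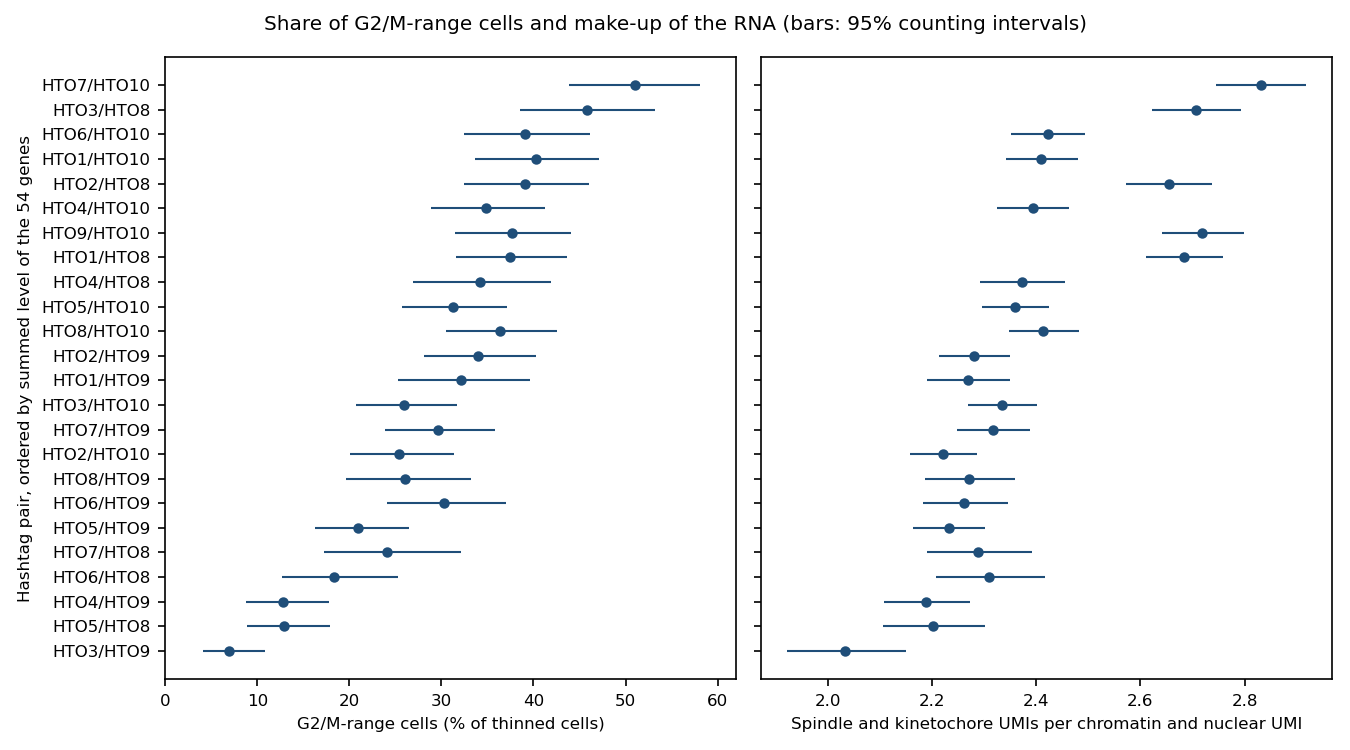
Left, share of G2/M-range cells in each hashtag pair in percent; right, summed UMIs of spindle and kinetochore members per UMI of chromatin and nuclear members, with pairs in the order of the summed level of the 54 genes and bars as 95% counting intervals. The shares run from 6.91% to 51.0%, and on the right 5 pairs lie at 2.65 or above while the others lie at 2.42 or below.

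Cells were also classed by 27 of the members, every other one in alphabetical order, and the other 27 were read. Within the class the read genes summed to 4667 CPM in HTO4/HTO9, the lowest, and 6233 CPM in HTO6/HTO10, the highest. HTO3/HTO9 had 6190 CPM there, from 14 cells. Outside the class the same genes ranged 3.03-fold, from 1197 CPM in HTO3/HTO9 and 1759 CPM in HTO5/HTO8 to 3627 CPM in HTO1/HTO10. The level within the class varied 1.34-fold over the pairs. The share of cells in it went from 5.69% in HTO3/HTO9 to 44.6% in HTO7/HTO10. Choosing cells by a minimum narrows the level within the class by construction. These values therefore do not separate the number of such cells from the level per cell.

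Genes differed in how sharply they marked these cells. For each member the class was formed from the other 53 members, and the fold is its CPM in the class over that in the other cells. The median fold was 2.26, and 35 of 54 members reached 2-fold, against 1.16% of the 5767 genes. CENPE had 148 CPM in the class and 40.1 CPM outside, a fold of 3.68 (3.30 to 4.11), the highest of the 54. AURKA followed with 578 and 165 CPM, a fold of 3.50 (3.31 to 3.70), and NEK2, a kinase that splits centrosomes, with 52.3 and 15.0 CPM, a fold of 3.49 (2.91 to 4.20). PSRC1, a spindle protein, TTK and HJURP had folds of 3.26, 3.20 and 3.11. All 8 kinetochore and checkpoint members reached 2-fold, with a median of 2.80, as did 12 of 15 spindle members. At the other end, CTCF had 59.3 and 59.0 CPM, a fold of 1.01 (0.88 to 1.14), so its level did not differ beyond counting error. CBX5 had 1.23 (1.11 to 1.37), JPT1 1.29, ANP32E 1.31, CKS1B 1.35 and RANGAP1 1.37. Of the 12 members of chromatin and nuclear structure, 3 reached 2-fold, namely TOP2A, MKI67 and CDCA2, and their median was 1.61 against 2.63 for the 31 spindle and kinetochore members. Spindle and kinetochore members supply more of the UMIs that form each class, which can raise their folds. At the median pair they summed to 4333 CPM, and the chromatin and nuclear members to 1827 CPM. The folds pool cells of all pairs with kept cells that had no clear pair, and include differences between pairs.

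**Figure D4:**
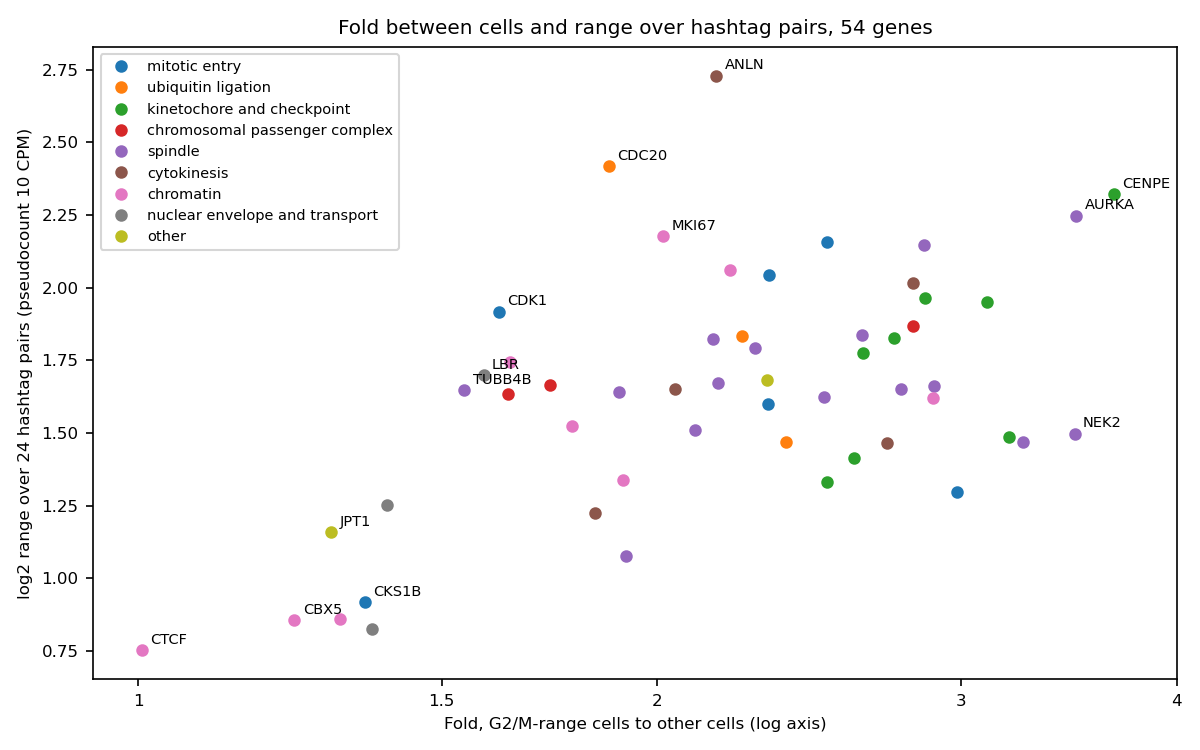
Fold of each of the 54 members between G2/M-range cells and other cells (horizontal, log axis) and log2 range of its level over the 24 hashtag pairs (vertical), coloured by role. CTCF lies lowest at a fold of 1.01, CENPE, AURKA and NEK2 lie farthest right, and ANLN and CDC20 lie higher than members with a like fold.

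ANLN and CDC20 were wide over the pairs without being the sharpest markers of the cells. ANLN had 291 CPM in the class and 135 CPM outside, a fold of 2.16 (2.02 to 2.32), and CDC20 343 and 183 CPM, a fold of 1.87 (1.76 to 1.99). CDK1 also had a log2 range of 1.92 beside a fold of 1.62. CDC25C had a fold of 2.98 (2.46 to 3.62) beside a log2 range of 1.30, which the pseudocount of 10 CPM narrows for a gene with 10.4 CPM at its lowest: its ratio without the pseudocount was 3.86. Members with and without a promoter element overlapped in fold. Elements were counted before the start only, and some members without the homology region hold it within the 50 bases after the start. The 33 members with the homology region had a median fold of 2.16 (range 1.01 to 3.68) and the 12 without it 2.56 (range 1.64 to 3.49), and their median log2 ranges over the pairs were 1.70 and 1.57. For the CCAAT box the median folds were 2.24 with it and 2.38 without, and the median log2 ranges 1.66 and 1.51. KIF2C and NEK2, which lack the homology region above, had folds of 2.90 and 3.49, and CKS1B, which holds it, 1.35.

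Genes outside the list, kept in separate lists, were compared with it. Of 49 other G2 and mitosis genes, 43 passed the level filter, 40 of these ranged 2-fold or more over the pairs (26.1% of all genes), and all 43 were lowest in HTO3/HTO9 (28.2%). CCNB1, the main mitotic cyclin B, had 84.8 CPM in HTO3/HTO9, a median of 255 and 422 CPM in HTO7/HTO10, which makes 4.98 times (4.30 to 5.78). PLK1, a kinase of mitotic entry and exit, had 27.9, 112 and 172 CPM in the same order, FAM83D, a spindle protein, 15.5, 64.6 and 113 CPM, and the cyclin A gene CCNA2 15.5, 77.3 and 104 CPM. In the cells, 19 of the 43 were 2-fold or more higher in the G2/M range (1.16% of all genes), led by KIF20A, a cytokinesis kinesin, with 67.4 and 15.8 CPM and a fold of 4.26 (3.59 to 5.06). PLK1 had a fold of 3.37 and CCNB1 of 3.17, whereas PKMYT1, the kinase that inhibits CDK1, had 0.91 (0.72 to 1.14).

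S phase genes also ranged widely over the pairs, and their summed level was lower in G2/M-range cells than in the others. Of 42 genes, 33 passed the level filter, 31 of these ranged 2-fold or more over the pairs (26.1% of all genes), and 23 were lowest in HTO3/HTO9 (28.2%). RRM2, a subunit of ribonucleotide reductase, went from 42.6 to 228 CPM and CDC6, a replication licensing factor, from 20.7 to 102 CPM. In G2/M-range cells 0 of the 33 were 2-fold higher (1.16% of all genes) and 3 were at 0.5-fold or less (0.503% of all genes). UNG, a DNA repair glycosylase, and the helicase subunit MCM6 had folds of 0.36 (0.27 to 0.48) and 0.37 (0.30 to 0.45), and RRM2 had 1.05 (0.97 to 1.13). Summed over the list, S phase genes gave 2286 CPM in G2/M-range cells and 2932 CPM in the others.

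Among 20 CDK inhibitors and G1 regulators, 8 passed the level filter and 3 ranged 2-fold or more (26.1% of all genes). CDKN1A, which encodes the CDK inhibitor p21, was lowest in HTO7/HTO10 with 5.21 CPM and highest in HTO8/HTO10 with 69.3 CPM, 13.3 times as much (7.92 to 24.1), around a median of 18.1 CPM. HTO3/HTO9 had 68.1 CPM of CDKN1A, near the top, with 6.91% of cells in the G2/M range. HTO5/HTO8 had 67.2 CPM with 12.9% of cells in the range, while HTO8/HTO10 had 36.4%. E2F1, a transcription factor of S phase entry, ranged from 8.22 CPM in HTO5/HTO8 to 37.7 CPM in HTO2/HTO9, and TFDP1, its partner, from 57.7 to 132 CPM.

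Within a pair, G2/M-range cells were not regularly fewer among cells above the pair's median interferon level. The cells of each pair were split at the pair's median level of the 24 interferon gamma genes. The share of G2/M-range cells was lower above the median in 11 pairs and higher in 13, with a median difference of 0.92 percentage points. It was lower in only 6 pairs with a limit of 45 UMIs, and in 7 with mitochondrial and interferon genes removed before thinning. The difference went from -9.05 points in HTO4/HTO8 to 12.0 points in HTO1/HTO8. In HTO3/HTO9 the share was 2.48% above the median and 11.2% at or below it, that is 3 of 121 and 14 of 125 cells. Cells above the median were the deeper ones in 17 pairs and had the higher mitochondrial share in 16.

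Splitting each pair by its median mitochondrial share gave a more uniform difference. G2/M-range cells were fewer above the median in 21 of 24 pairs, with a median difference of -4.84 points, and the exceptions were HTO3/HTO8, HTO1/HTO10 and HTO6/HTO10. HTO5/HTO8 had the largest difference, 4.31% above and 21.4% at or below the median. Mitochondrial UMIs take part of the 3000, and cells above the median were shallower in all 24 pairs. With mitochondrial genes removed before thinning, an alternative chosen after seeing the data, the difference was negative in 18 of 24 pairs with a median of -3.83 points. Among cells at or below the median mitochondrial share, the interferon split gave fewer G2/M-range cells above the median in 10 of 24 pairs.

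**Figure D5:**
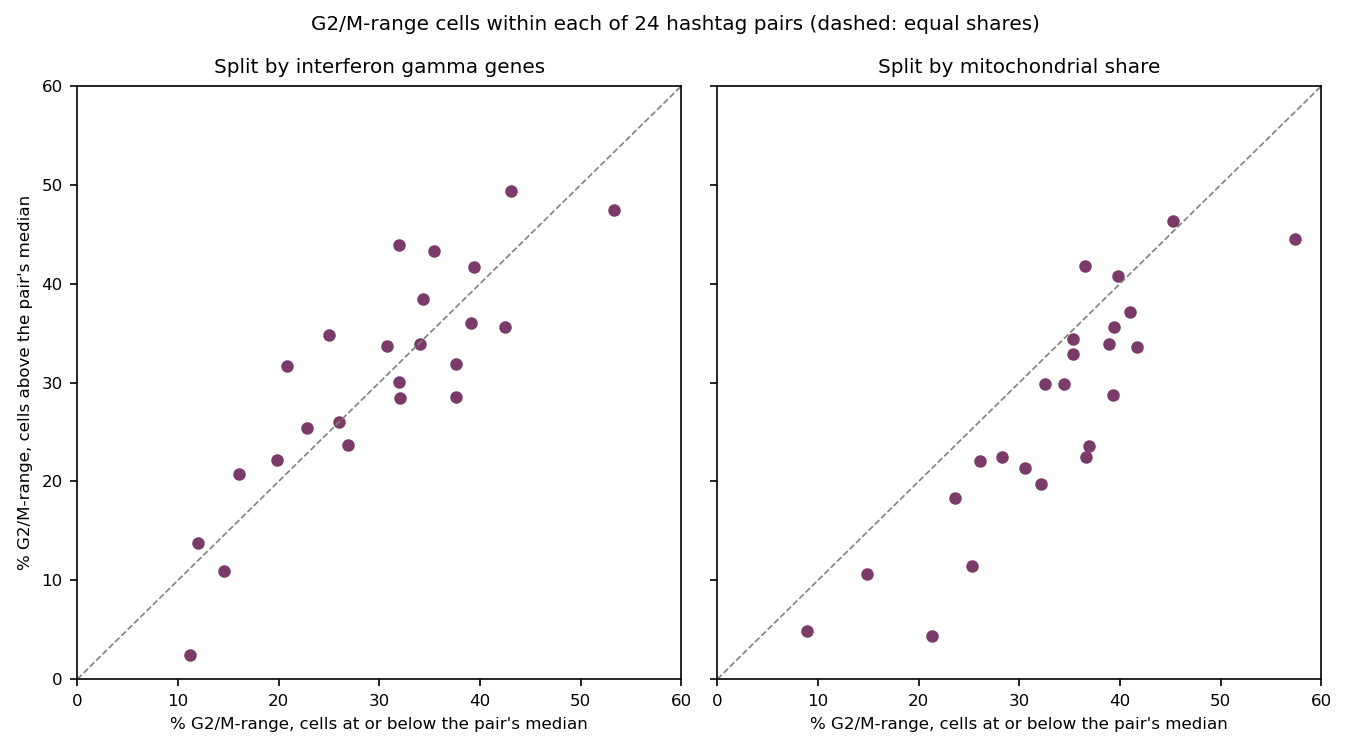
Share of G2/M-range cells in percent among cells above (vertical) and at or below (horizontal) the median of their own hashtag pair, split by summed interferon gamma genes (left) or by mitochondrial share (right), 1 point per pair, with equality dashed. On the left 11 points lie below the line and 13 above, and on the right 21 of 24 lie below.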

How the data were processed

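The authors deposited 1 matrix of UMI counts, whole numbers per gene or hashtag and barcode, not normalized. Cell Ranger 5.0.1 is named in the deposited file's header and Cell Ranger 2.1.1 with GRCh38 in the submitters' processing notes; the reason for the difference is not given in the sources used here. Barcodes were kept at 1000 or more genes and at most 20% mitochondrial UMIs. A cell was given the pair of its top tags where the second had at least 3 times the third, and no doublet caller was run. The 1110 kept cells without a clear pair stayed out of pair sums but not out of the pooled cell classes and folds. UMIs were summed per pair and scaled to CPM over all genes. Ranges used a pseudocount of 10 CPM and a mean of at least 20 CPM. Thinning used a fixed seed. Intervals are exact at 95% (Newcombe for differences of shares) and cover counting error only; the highest and lowest pairs were picked by value, which widens their gap. No test between conditions was possible, since pairs carry no treatment label and each is 1 culture. All 54 members could be named; values are given for the most abundant and most variable of each role and for those beside a threshold. For the other lists the widest in range are named, with CCNB1 and PLK1, and in the cells those with the extreme folds. The members and lists were chosen with earlier results of these data known. Levels were not ranked between genes; ratios between genes or groups of genes are set side by side over pairs. Positions come from GENCODE release 29 and promoters from RefSeq. The code was tested on simulated data. Tools were Python 3.11.15, numpy 2.4.6, scipy 1.17.1, pandas 2.3.3 and scanpy 1.11.5.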

Additional observations from a re-analysis of the deposited data

Results flagged for a closer look

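Members were also measured in barcodes left out of the pair sums above. The 4252 barcodes outside the filter on genes and mitochondrial UMIs held 4612 CPM of the 54 members (4573 to 4651), with a median of 2172 UMIs and 53.0% mitochondrial UMIs. The 1110 kept cells without a clear tag pair held 8043 CPM (8004 to 8082), with a median of 17091 UMIs. They are part of the pooled cell classes and folds above, unless too shallow to thin. Kept cells with a pair held 8390 CPM (8369 to 8411), with a median of 13208 UMIs and 10.5% mitochondrial UMIs. CPM counts mitochondrial UMIs in the total, and their part in the lower level outside the filter was not tested.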

How the results depend on the processing

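No paired analysis was possible because the tag pairs carry no replicate numbers. Of the alternatives run, the summed level of the members, 3.27 times higher in the highest than in the lowest pair, became 3.54 in cells with 2000 or more genes and no more than 10% mitochondrial UMIs, 3.11 without mitochondrial UMIs in the total, 3.03 without mitochondrial and interferon list UMIs, and 2.15 without HTO3/HTO9. The 49 members at 2-fold became 31 with a pseudocount of 50 CPM and 23 with a mean of at least 100 CPM, which tests fewer genes. Of the members with that mean, only CKS1B and ANP32E were under 2-fold. The share of all genes at 2-fold was not taken under these settings. The difference of 0.23 between the median ranges of spindle and kinetochore and of chromatin members became -0.028 with a mean of at least 100 CPM and 0.59 with the stricter cell filter; the cause was not tested. The gap in the share of G2/M-range cells, 44.1 points, became 66.6 points with a limit of 20 UMIs, 14.4 points with 45 UMIs, and 57.4 points with the phase call of scanpy. In that call HTO3/HTO8 was the highest pair, at 69.6%, and HTO7/HTO10 had 65.0%. The 11 pairs with fewer G2/M-range cells above the median interferon level became 6 with a limit of 45 UMIs and 7 after removing mitochondrial and interferon genes. The members' median fold and the count with the homology region stayed within 1.5 times under every alternative run. No member came down to the floor of 3 counts: the lowest value, 5.57 CPM of CDCA2 in HTO3/HTO9, rests on 14 UMIs.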

Other observations

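Beyond the lists, 67 of the 5767 genes were 2-fold or more higher in G2/M-range cells: 35 members, 19 other G2 and mitosis genes and 13 genes on no list. PIF1, a DNA helicase, led the 13 with 74.3 CPM in the range and 22.1 CPM outside, a fold of 3.36. ARL6IP1, a membrane-shaping protein of the endoplasmic reticulum, had 562 and 210 CPM, and KPNA2, an importin alpha, 655 and 274 CPM. Others were CEP55, a protein of abscission, with a fold of 2.13, the kinesin KIFC1 with 2.18, PRR11 with 2.17, and DBF4, the activator of the replication kinase CDC7, with 2.06. Of the 13, 11 were lowest in HTO3/HTO9 (28.2% of all genes), and DBF4 and HYLS1 were lowest in HTO5/HTO8. These genes were chosen by their values in G2/M-range cells, whose share was lowest in HTO3/HTO9, so the count is not independent of that choice.

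Cells of all pairs and cells without a clear pair were pooled here. In G2/M-range cells, 5 of 20 interferon gamma genes were at or below 0.5 times their level in other cells, against 0.503% of all 5767 genes. CXCL9, a chemokine, had the lowest fold of all 5767 genes, 0.21. The split within pairs above showed no such regular difference, but in pairs with a low interferon level it rests on few UMIs per cell. The pooled value includes differences between pairs. The 173 cells with at least 5 UMIs of the keratin gene KRT81 after thinning had 14.5% in the G2/M range (9.58 to 20.6%), against 29.8% of the other cells, with median depths of 19540 and 13502 UMIs.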
